A study of Arabidopsis thaliana with 126 samples.

Results

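The transcripts of 10 loci that act between the ER membrane and the nucleus in ethylene (ET) signaling were followed in etiolated *Arabidopsis* seedlings. They are *EIN2* (AT5G03280), the *EIN3* family genes *EIN3* (AT3G20770), *EIL1* (AT2G27050), *EIL2* (AT5G21120) and *EIL3* (AT1G73730), the F-box genes *EBF1* (AT2G25490), *EBF2* (AT5G25350), *ETP1* (AT3G18980) and *ETP2* (AT3G18910), and the exoribonuclease gene *EIN5* (AT1G54490). The loci were taken by their identifiers from 33602 genes, and all 10 reached the minimum of 1 TPM in 2 or more libraries of each RNA-seq table. TPM, or transcripts per unit of library total, divides reads by transcript length, so levels can be set side by side between genes.

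EIN2 is a membrane protein of the endoplasmic reticulum that holds a central place in ET signaling. In air the kinase CTR1 keeps it inactive, and the F-box proteins ETP1 and ETP2 send it for degradation. After ET its C-terminal part is released, moves to the nucleus and to cytoplasmic RNA bodies, and the transcription factors EIN3 and EIL1 accumulate because EBF1 and EBF2, the F-box proteins that mark them for degradation, are held back. EIN5 is a 5′ to 3′ exoribonuclease that keeps *EBF1* and *EBF2* transcripts low, and *EBF2* is itself a transcriptional target of EIN3, so the pathway contains a feedback loop.

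RNA was sequenced from whole seedlings grown for 3 days in the dark in hydrocarbon-free air, and ET gas was given for 4 hr where stated. The first table holds 5 genotypes in the accession Landsberg *erecta* (L*er*), each in air and after ET. They are L*er* itself, *ein6-1* (a small deletion with a premature stop in *EIN6*, also called *REF6*, which encodes a demethylase of histone H3K27me3), *een-1* (an inversion on chromosome 4 that joins *AQI* to *EEN*, which encodes a subunit of the INO80 chromatin remodeler), *ein6-1 een-1*, which carries both and is the original ET-insensitive line, and *ein2-45*, a point mutation in the part of *EIN2* that encodes the C-terminus. The second table holds the accession Col-0 and the mutants *een-2*, *ino80-8* and *arp5-1* of INO80 complex genes in that accession, all in air. Every group has 2 libraries, described as biological replicates, which gives 20 libraries in L*er* and 8 in Col-0, of 126 samples in the series. Each mutation is represented by 1 line, whole seedlings mix all organs, and in such samples fewer cells of a type and less RNA per cell cannot be told apart.

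The mutated genes bear on the labels as follows. *AQI* was at 12.7 to 14.5 TPM in the *een-1* libraries and 10.8 to 14.4 TPM in *ein6-1 een-1*, against 90.8 to 109 TPM in L*er*. *EEN* was at 0.32 and 1.01 TPM in *een-2* against 38.6 and 50.3 TPM in Col-0, and *INO80* at 2.87 and 3.41 TPM in *ino80-8* against 19.0 and 20.5 TPM. Transcript levels of *EIN6*, *EIN2* and *ARP5* do not test *ein6-1*, *ein2-45* and *arp5-1*, since a small deletion or point mutation can leave the transcript in place and *ARP5* was at 3.96 and 4.37 TPM in *arp5-1* against 5.36 and 5.51 TPM in Col-0.

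Ribosomal RNA genes took 2.80% to 30.3% of TPM in the first table, with the highest share in *ein6-1* ET replicate 2 and the next in L*er* air replicate 1 (16.1%), and 0.921% to 3.54% in the second. For this reason a value from libraries rescaled by median-of-ratios factors stands beside the deposited scale wherever it changes a call. Without rescaling, the median log2 change over all tested genes was 0.25 after ET in L*er*, 0.32 in *een-1* and 0.33 in *ein6-1 een-1* against L*er* in air, and -0.31 in *ein6-1* against L*er* after ET. The dark-grown marker *PORA* was at 214 TPM or more in every library of the first table. The seed markers *CRU1*, *CRU3*, *OLEO1* and *EM6* summed to 12516 to 13240 TPM in *ein6-1 een-1* in air, 1641 to 1671 TPM in L*er*, 45.0 to 54.9 TPM in *ein6-1*, 1516 to 3596 TPM in *een-1* and 178 to 252 TPM in *ein2-45*. In the second table the sum was 3492 to 3784 TPM in *arp5-1* and 43.2 to 43.7 TPM in Col-0.

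The *EIN2* gene lies on the plus strand of chromosome 5 from 787428 to 793404 (TAIR10.1) and has 8 exons with 3885 coding bases. The zinc fingers of EIN6 bind a motif of 8 letters that can be written as CTCTGTTT or CTCTGTTC or CTCTGCTT or CTCTGCTC, so the gene was searched for these forms on both strands, and the 3 sites that lie in introns or coding exons are shown in windows of 30 bases with the motif in capitals. A match is a description of the sequence and was not tested for binding here. The sequences are those of RefSeq for TAIR10.1.
*EIN2* intron 1, chr5:787612-787641: aaaccctaatcCTCTGTTTttttttttatt
*EIN2* exon 2, coding, chr5:788744-788773: ggtggcaattaCTCTGCTTttcaattttgc
*EIN2* exon 7, coding, chr5:790415-790444: tcagtacaccaCTCTGCTTgtatcgtcatg

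All 3 sites read on the gene's own strand, and 1 more match lies in exon 8 outside the coding part. The intron 1 site begins 195 bases from the start of the gene. In the first 1000 bases of the gene *EIN2*, *EIL2* and *EBF1* hold 1 match each and *EIL1* holds 3. Of 23067 protein-coding genes of at least that length, 38.48% hold 1 or more and 12.13% hold 2 or more. *EIN3* and *EIL2* have 3 matches each over their whole length, *EIL3*, *EBF1*, *EBF2* and *EIN5* have 1 each, and none of the forms is in *ETP1* or *ETP2*.

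*EBF2* had the largest ET response of the 10 loci in L*er*, and the 250 bases before its start are shown because EIN3 binds a core written ATGTA, which reads TACAT when it lies on the opposite strand. The window of *EIN2* is shown beside it for comparison, with each match in capitals.
*EBF2* upstream, chr5:8797350-8797599, minus strand: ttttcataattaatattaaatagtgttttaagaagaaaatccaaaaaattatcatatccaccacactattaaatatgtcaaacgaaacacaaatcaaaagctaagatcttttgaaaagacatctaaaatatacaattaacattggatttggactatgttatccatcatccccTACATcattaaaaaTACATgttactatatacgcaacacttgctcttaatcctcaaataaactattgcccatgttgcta
*EIN2* upstream, chr5:787178-787427, plus strand: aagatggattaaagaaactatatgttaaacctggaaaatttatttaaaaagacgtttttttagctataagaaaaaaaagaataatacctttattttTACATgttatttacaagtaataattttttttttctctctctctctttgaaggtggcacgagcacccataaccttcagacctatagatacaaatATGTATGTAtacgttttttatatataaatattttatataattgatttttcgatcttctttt

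The *EBF2* window holds 2 matches, 78 and 64 bases before the start, both read as TACAT. The *EIN2* window holds 3, of which 2 overlap. *EIN3* and *EIL2* also have 3 each and *ETP2* has 1, and the letters are in none of the other 5 windows. Of 27443 protein-coding genes, 52.05% have at least 1 match in such a window and 20.19% have at least 2, so the short core is common. The longer form ATGTATCT is in no member's window and in 1.232% of all windows.

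*EIN2* was lowest in *ein6-1 een-1*, with 0.202 times the L*er* value in air on the fitted scale of TPM + 1. In air its level was 44.1 and 51.2 TPM in L*er*, 64.8 and 56.5 TPM in *ein6-1*, 51.9 and 49.9 TPM in *een-1*, 9.38 and 8.24 TPM in *ein6-1 een-1*, and 44.2 and 39.8 TPM in *ein2-45*. Both *ein6-1 een-1* libraries lay far below all others, and *ein2-45* overlapped L*er* on the deposited scale. After rescaling *ein2-45* was at 43.0 and 42.5, below both L*er* libraries at 54.4 and 57.2. Its log2 difference from L*er* was -0.38 with rescaling and without *ein6-1* ET replicate 2. The log2 fold change of *ein6-1 een-1* against L*er* was -2.31 (standard error 0.31, adjusted p = 2.2e-05 from limma), which made *EIN2* number 58 from the bottom of 20592 genes ranked by fold change. In this comparison 34.8% of all genes passed the test, 28.5% higher and 6.3% lower, and 5 of the 10 loci did. *EIN2*, *EIL2* and *EBF2* fell, and *ETP1* and *ETP2* rose. The seed markers, 4 of 4, were higher in *ein6-1 een-1* than in L*er* in both conditions, the dark-grown marker *PORA* was lower after ET (-1.06, adjusted p = 0.0012), and of 3 light-grown markers 1 was lower in air and 2 after ET. The part of these shifts in the results was not tested.

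After ET *EIN2* was at 65.8 and 86.8 TPM in L*er*, 107 and 34.1 TPM in *ein6-1*, 88.0 and 83.9 TPM in *een-1*, 9.18 and 10.6 TPM in *ein6-1 een-1*, and 42.5 and 46.9 TPM in *ein2-45*. The 2 libraries of *ein6-1* lay far apart, one above every other library and the other, that of 30.3% rRNA, below all but those of *ein6-1 een-1*. After rescaling they were still apart, at 105 and 54.8, and the lower one lay above both *ein2-45* ET libraries (41.3 and 45.6). The difference of *ein6-1 een-1* from L*er* was -2.82 on the log2 scale (standard error 0.31, adjusted p = 1.2e-06), in a comparison in which 21.4% of all genes and 3 of the 10 loci passed. *ein2-45* differed from L*er* by -0.75 (adjusted p = 0.098), a value that passed after rescaling (-0.75, adjusted p = 0.009, with a range of 0.0045 to 0.18 over the alternatives). Here and below, such ranges do not cover fits with 1 library left out.

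Against each single mutant *EIN2* was as low. In air the log2 difference of *ein6-1 een-1* was -2.65 from *ein6-1* (adjusted p = 2.7e-06) and -2.41 from *een-1* (adjusted p = 1.7e-05). After ET it was -2.50 from *ein6-1* (adjusted p = 4.1e-06) and -3.00 from *een-1* (adjusted p = 7.2e-07), and without *ein6-1* ET replicate 1 the former was -1.69. The shares of all genes that passed were 25.7%, 13%, 38.4% and 21.3% in these 4 comparisons, and the counts of loci were 4, 4, 4 and 3. *PORA* and all 3 light-grown markers were lower, and all 4 seed markers higher, in *ein6-1 een-1* than in either single mutant in air. *EIN2* was also lower in *ein6-1 een-1* than in *ein2-45* after ET, by -2.07 on the log2 scale (adjusted p = 6.8e-05), where 20.5% of all genes and 2 of the 10 loci passed. In this comparison all 4 seed markers were higher (median 5.11), and all 3 light-grown markers (median -1.74) and *PORA* (-1.30) were lower. The part of these marker shifts in the results was not tested.

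Neither single mutant passed the test against L*er* for *EIN2*. The log2 difference in air was 0.34 for *ein6-1* (adjusted p = 0.60) and 0.10 for *een-1* (adjusted p = 0.84), each with a standard error of 0.31, and the *een-1* value was -0.28 after rescaling (adjusted p = 0.32). None of the 10 loci passed in *ein6-1* against L*er* in air by limma, against 4.19% of all genes, and none in *een-1*, against 23.7%, with 1 locus in each at an unadjusted p below 0.05. After ET none passed in *ein6-1* (12.1% of all genes, 2 loci at an unadjusted p below 0.05) or in *een-1* (6.85%, 0 loci). In air all 4 seed markers were lower in *ein6-1* than in L*er* (median -4.75), and none passed in *een-1*. *PORA* was higher in both single mutants (0.96 and 1.24), as was 1 of 3 light-grown markers. The difference between *ein6-1 een-1* and the sum of the effects of the single mutants, here called non-additivity, was -2.75 for *EIN2* in air (standard error 0.44, adjusted p = 0.00023) and -2.68 after ET (adjusted p = 0.00029), the latter -1.87 without *ein6-1* ET replicate 1. Among all genes 10% passed this test in air and 10.5% after ET, and among the 10 loci *EIN2* and *EBF2* did in both conditions. After rescaling *EIL1* also passed in air (-0.73, adjusted p = 0.0054, with a range of 0.0054 to 0.14 over the alternatives), and after ET *EIL1* (-0.51, adjusted p = 0.045, range 0.045 to 0.90) and *EIL2* (-0.94, adjusted p = 0.029, range 0.029 to 0.37) did. By the same test all 4 seed markers were higher (median 7.09 in air and 6.02 after ET) and *PORA* lower (-2.61 and -1.78). Of 3 light-grown markers 3 were lower in air and 2 after ET. The part of these shifts in the non-additivity results was not tested.

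The response of *EIN2* to ET itself passed in no genotype on the deposited scale with all 20 libraries fitted. It was 0.66 on the log2 scale in L*er* (95% interval 0.01 to 1.31, adjusted p = 0.14), 0.74 in *een-1* (0.10 to 1.39, adjusted p = 0.17), 0.00 in *ein6-1* (adjusted p = 1.00), 0.15 in *ein6-1 een-1* (-0.49 to 0.80) and 0.09 in *ein2-45* (-0.56 to 0.73). In L*er* and *een-1* both ET libraries lay above both air libraries, and the *een-1* value passed after rescaling (0.71, adjusted p = 0.024, with a range of 0.0045 to 0.28 over the alternatives). In *ein6-1* the direction turned with the library left out, to -0.81 without ET replicate 1 (adjusted p = 0.0011) and 0.81 without ET replicate 2 (adjusted p = 0.0056). The L*er* value of 0.66 passed with the compared groups alone (adjusted p = 0.0011). It also passed without either *ein6-1* ET library, which are outside that comparison. Ordered by mean, the 10 groups ran from 8.81 TPM in *ein6-1 een-1* in air to 86.0 TPM in *een-1* after ET. Of the 9 neighbouring pairs in this order, 7 overlapped, and the gaps lay between *ein6-1 een-1* after ET and *ein2-45* in air and between *een-1* and *ein6-1* in air.

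**Figure D1:**
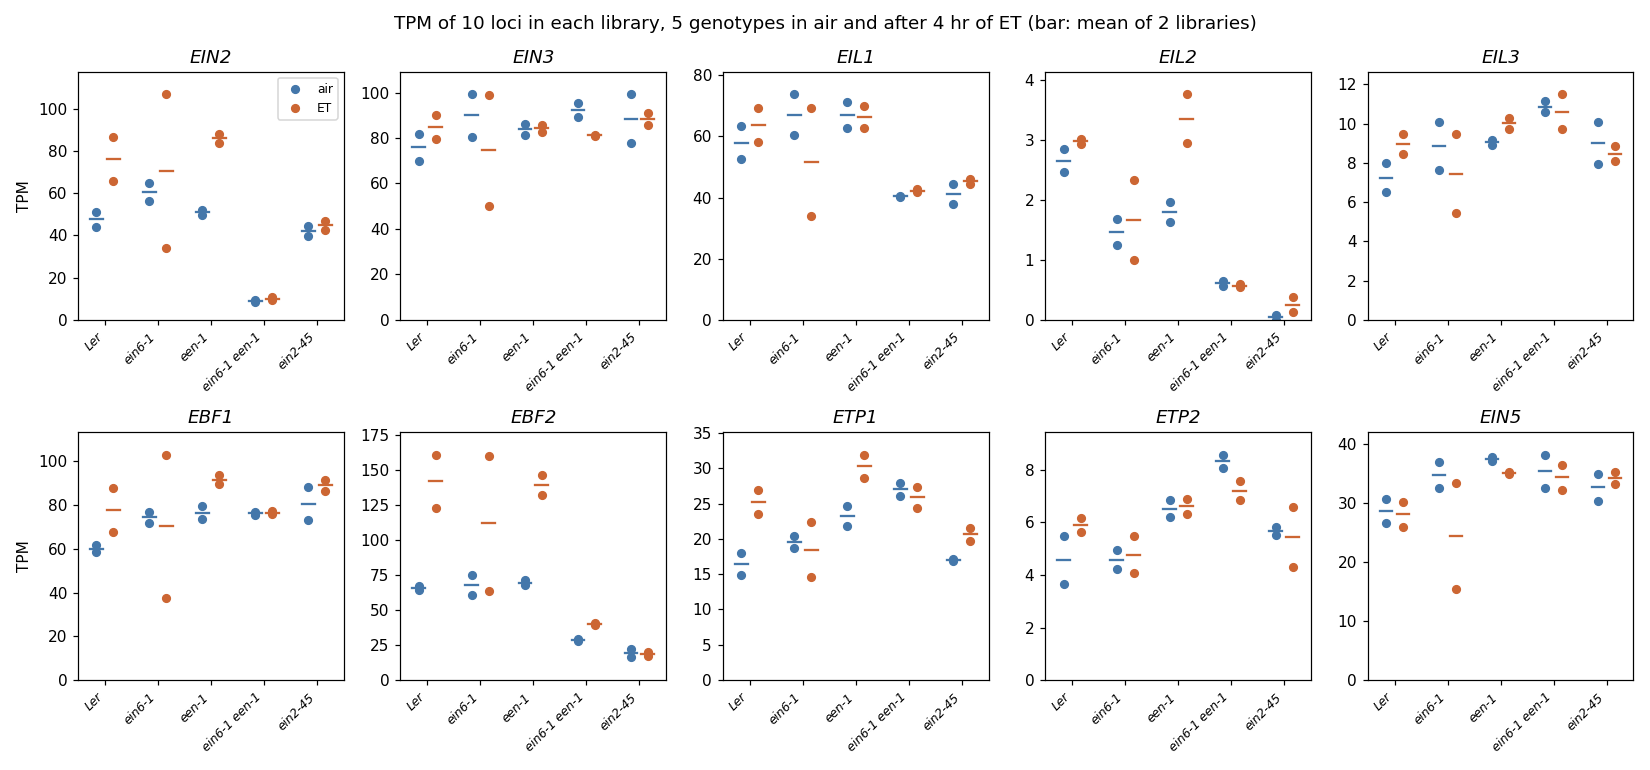
TPM (vertical axis, from 0) of each of the 10 loci in each library of the first table, with air in blue and ET in orange for the 5 genotypes on the horizontal axis; points are libraries and bars the mean of 2. *EIN2* in *ein6-1 een-1* stays between 8.24 and 10.6 TPM, and the 2 *ein6-1* ET libraries are far apart for most loci.

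The transcription factor genes *EIN3* and *EIL1* were expressed at high levels in every group, and *EIL1* passed in 2 comparisons of the first table and *EIN3* in none. *EIN3* (chromosome 3, 7260429 to 7263384, minus strand), the main factor of the ET response, was at 70.0 and 81.7 TPM in L*er* in air, 79.4 and 90.3 TPM after ET, and 95.6 and 89.4 TPM in *ein6-1 een-1* in air. Its group means ran from 74.5 to 92.5 TPM, and all 9 neighbouring pairs overlapped. Its ET response was 0.16 in L*er* (standard error 0.22, adjusted p = 0.62) and -0.11 after rescaling, and it passed no test of the first table.

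*EIL1* (chromosome 2, 11545656 to 11548293, plus strand), which acts beside *EIN3*, was at 52.6 and 63.3 TPM in L*er*, 73.7 and 60.4 TPM in *ein6-1*, 62.6 and 71.2 TPM in *een-1*, 40.3 and 40.5 TPM in *ein6-1 een-1* and 44.5 and 37.9 TPM in *ein2-45*, all in air. Both *ein6-1 een-1* and *ein2-45* libraries lay below every library of the other 3 genotypes. Against *ein6-1* and *een-1* in air *EIL1* fell in *ein6-1 een-1* by 0.71 on the log2 scale each (adjusted p = 0.027 and 0.044). The *een-1* comparison lost its call with any 1 library left out except those of L*er* after ET and of *ein6-1*, up to an adjusted p of 0.26 without *een-1* air replicate 2 (-0.62), and the *ein6-1* one without *ein6-1* air replicate 1 (-0.57, adjusted p = 0.21) or *ein6-1 een-1* air replicate 1 (-0.71, adjusted p = 0.11) or 2 (-0.71, adjusted p = 0.10). Against L*er* the differences were -0.51 in air (adjusted p = 0.09) and -0.58 after ET (adjusted p = 0.08) in *ein6-1 een-1*, and -0.48 (adjusted p = 0.17) and -0.48 (adjusted p = 0.16) in *ein2-45*. After rescaling all 4 passed, at -0.88, -0.60, -0.69 and -0.48 (adjusted p = 3.3e-05, 0.00071, 0.00046 and 0.0042). Over the alternatives the adjusted p of these 4 had ranges of 3.3e-05 to 0.13, 0.00071 to 0.12, 0.00046 to 0.24 and 0.0042 to 0.21. After ET *ein6-1 een-1* differed from *ein6-1* by -0.20 (adjusted p = 0.50) and from *een-1* by -0.64 (adjusted p = 0.052). Both passed after rescaling, at -0.59 (adjusted p = 0.00072, range 0.00072 to 0.75 over the alternatives) and -0.52 (adjusted p = 0.0023, range 0.0014 to 0.087). The ET response of *EIL1* in L*er* was 0.13 (standard error 0.23, adjusted p = 0.70) and -0.14 after rescaling.

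*EIL2* (chromosome 5, 7181926 to 7184365, plus strand), an *EIN3* relative expressed at low levels, was at 2.85 and 2.46 TPM in L*er* in air, 1.24 and 1.68 TPM in *ein6-1*, 1.97 and 1.63 TPM in *een-1*, 0.57 and 0.65 TPM in *ein6-1 een-1*, and 0.08 TPM in 1 *ein2-45* library while listed at 0 in the other. After ET it was at 3.02 and 2.93 TPM in L*er*, 2.34 and 1.00 TPM in *ein6-1*, 3.76 and 2.95 TPM in *een-1*, 0.54 and 0.60 TPM in *ein6-1 een-1* and 0.38 and 0.13 TPM in *ein2-45*. The 2 ET-insensitive genotypes lay below all libraries of L*er*, *ein6-1* and *een-1* in both conditions. The log2 fold change of TPM + 1, a scale that understates changes at such levels, was -1.18 (adjusted p = 0.001) in air and -1.34 (adjusted p = 0.00029) after ET in *ein6-1 een-1*, and -1.81 (adjusted p = 2.9e-05) and -1.67 (adjusted p = 2.7e-05) in *ein2-45*. *EIL2* and *EBF2* were the 2 loci that passed in *ein2-45* against L*er* in air, where 15.8% of all genes did, and after ET, where 21.1% did. In *ein2-45* in air all 3 light-grown markers (median 1.89) and *PORA* (1.17) were higher than in L*er* and all 4 seed markers lower (median -2.98), and the part of these shifts in the results was not tested. *EIL2* did not pass in *ein6-1* (-0.57, adjusted p = 0.22) or *een-1* (-0.39, adjusted p = 0.23) against L*er* in air, and both passed after rescaling (-0.72, adjusted p = 0.034, range 0.034 to 0.41 over the alternatives, and -0.65, adjusted p = 0.023, range 0.023 to 0.42). Against the single mutants *EIL2* was lower in *ein6-1 een-1* than in *een-1* in air (-0.80, adjusted p = 0.029) and after ET (-1.47, adjusted p = 0.00013), and than in *ein6-1* after ET (-0.72, adjusted p = 0.022). The difference from *ein6-1* in air was -0.61 (adjusted p = 0.066), which passed after rescaling (-0.69, adjusted p = 0.011, range 0.011 to 0.10 over the alternatives). The *een-1* air call was lost without any of the 4 libraries compared (-0.88 to -0.71, adjusted p = 0.085 to 0.19). The *ein6-1* call was lost without *ein6-1* ET replicate 1 (-0.35, adjusted p = 0.20), *ein6-1 een-1* ET replicate 1 (-0.69, adjusted p = 0.09) or 2 (-0.75, adjusted p = 0.083). With a minimum of 5 TPM *EIL2* is not tested.

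*EIL3* (chromosome 1, 27730031 to 27732683, minus strand), which controls the response to sulfur limitation and is also called *SLIM1*, was between 5.43 and 11.5 TPM in all 20 libraries and passed none of its 27 tests. Its largest difference was 0.53 between *ein6-1 een-1* and L*er* in air (10.6 and 11.1 against 6.50 and 7.98 TPM, adjusted p = 0.073), and 0.19 after rescaling (adjusted p = 0.26). It passed when the compared groups alone were fitted (0.53, adjusted p = 0.019), without rRNA and organelle genes (0.38, adjusted p = 0.047) and without either *ein6-1* ET library (0.53, adjusted p = 0.013). Of 9 sulfur limitation genes 6 rose and none fell in this comparison (28.5% of all genes were higher, and the median was 0.93 against 0.33 over all genes tested), *SDI1* by 1.64 (adjusted p = 0.00043) and *SULTR4;2* by 1.33 (adjusted p = 0.0012) among them. After ET 2 of 9 rose, where 11.1% of all genes were higher, *LSU1* by 1.81 (adjusted p = 0.00079) and *SULTR1;2* by 1.44 (adjusted p = 0.00052).

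A pair of further loci annotated as EIN3 family proteins were higher in *ein6-1 een-1*, unlike *EIL1* and *EIL2*. AT5G10120 was at 7.88 and 9.40 TPM in L*er* in air, 1.99 and 2.54 TPM in *ein6-1*, 10.5 and 13.1 TPM in *een-1*, and 37.2 and 36.1 TPM in *ein6-1 een-1*. It rose in *ein6-1 een-1* by 1.97 on the log2 scale (adjusted p = 6.9e-06) and fell by 1.56 in *ein6-1* (adjusted p = 0.00044) and by 1.04 in *ein2-45* (adjusted p = 0.0049). AT5G65100 rose in *ein6-1 een-1* by 0.75 (adjusted p = 0.023), from 2.24 and 3.99 to 6.05 and 5.48 TPM. Against L*er* in air all 4 seed markers were also higher in *ein6-1 een-1*, and all 4 were lower in *ein6-1* and in *ein2-45*. AT5G10120 was at 2.62 and 5.05 TPM in *ein2-45* in air. There the seed markers summed to 178 to 252 TPM, against 1641 to 1671 TPM in L*er*. After ET AT5G10120 was at 8.64 and 6.49 TPM in *ein2-45* and 5.79 and 6.11 TPM in L*er*, where the seed markers summed to 232 to 277 and 1724 to 2265 TPM. The part of seed transcripts in these values was not tested.

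*EBF2* had the clearest ET response of the 10 loci. Its gene (chromosome 5, 8794252 to 8797349, minus strand) encodes the F-box protein that removes EIN3 and EIL1 once a response is under way. In L*er* its level was 67.3 and 64.1 TPM in air and 123 and 161 TPM after ET, and in *een-1* 71.2 and 68.2 TPM in air and 147 and 132 TPM after ET. In both genotypes each ET library lay far above each air library. The log2 fold change was 1.09 in L*er* (standard error 0.27, adjusted p = 0.01) and 0.99 in *een-1* (adjusted p = 0.031), and *EBF2* was number 278 from the top of 20592 genes in the latter. In L*er* 19.5% of all genes passed and 14.8% of all genes were higher, and 2 of the 10 loci did, *EBF2* and *ETP1*, both higher. In *een-1* 7.35% passed and *EBF2* was the 1 locus that did. The call in L*er* was lost without L*er* air replicate 1 (1.12, adjusted p = 0.065), air replicate 2 (1.05, adjusted p = 0.06) or ET replicate 2 (0.89, adjusted p = 0.11). That in *een-1* was lost without any 1 of its 4 libraries (0.91 to 1.06), which leaves 1 library in a compared group.

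In *ein6-1* *EBF2* was at 75.1 and 60.8 TPM in air and 161 and 63.5 TPM after ET. The second ET library overlapped the air libraries, and the log2 fold change of 0.57 did not pass (95% interval 0.0031 to 1.14, adjusted p = 0.20). After rescaling it was 0.85 (adjusted p = 0.0028, with a range of 0.0028 to 0.68 over the alternatives), and without *ein6-1* ET replicate 2 it was 1.24 (adjusted p = 0.0003). None of the 10 loci passed in *ein6-1* by limma, against 11.4% of all genes, and 2 did at an unadjusted p below 0.05.

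In *ein6-1 een-1* *EBF2* was at 28.0 and 29.4 TPM in air and 40.9 and 39.4 TPM after ET, and in *ein2-45* at 22.0 and 16.7 TPM in air and 17.5 and 19.95 TPM after ET. The ET libraries of *ein6-1 een-1* lay above its air libraries without overlap, and those of *ein2-45* lay within its air values. The log2 fold changes were 0.47 (95% interval -0.10 to 1.04, adjusted p = 1.00) and -0.03 (-0.61 to 0.54, adjusted p = 1.00), and none of the 10 loci passed in either genotype by limma or at an unadjusted p below 0.05, against 0.379% and 0% of all genes. The difference of these responses from that of L*er* was -0.62 for *ein6-1 een-1* (95% interval -1.42 to 0.19, adjusted p = 0.34) and -1.12 for *ein2-45* (-1.93 to -0.32, adjusted p = 0.12). The latter passed after rescaling (-0.92, adjusted p = 0.026, with a range of 0.0057 to 0.21 over the alternatives). None of the 10 loci passed a test of a difference in ET response from L*er* by limma, in *ein6-1* (0.0146% of all genes), *een-1* (0%), *ein6-1 een-1* (3.7%) or *ein2-45* (3.71%), and 1, 0, 1 and 1 did at an unadjusted p below 0.05.

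Before any ET was given, *EBF2* was already lower in the 2 ET-insensitive genotypes. The difference from L*er* in air was -1.17 in *ein6-1 een-1* (standard error 0.27, adjusted p = 0.0034) and -1.72 in *ein2-45* (adjusted p = 0.00019), and after ET it was -1.78 (adjusted p = 6.2e-05) and -2.85 (adjusted p = 1.8e-07). These comparisons share the L*er* libraries. Compared with each other after ET, *EBF2* was higher in *ein6-1 een-1* than in *ein2-45* by 1.06 (adjusted p = 0.0087), a call lost without *ein6-1 een-1* ET replicate 1 (1.04, adjusted p = 0.061) or *ein2-45* ET replicate 1 (0.97, adjusted p = 0.074). Between these 2 genotypes after ET all 4 seed markers were also higher in *ein6-1 een-1*, and all 3 light-grown markers and *PORA* were lower. The part of these shifts in the *EBF2* difference was not tested. The order of the group means was *ein2-45*, *ein6-1 een-1*, then L*er*, *ein6-1* and *een-1* in air, then these 3 after ET, from 18.7 to 142 TPM.

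*EBF1* (chromosome 2, 10847375 to 10850797, minus strand), the paralog that acts in air and early in the response, passed no test of the first table. It was at 58.3 and 61.9 TPM in L*er* in air and 67.7 and 87.9 TPM after ET, a difference of 0.36 on the log2 scale (adjusted p = 0.37). In *ein6-1 een-1* in air it was at 76.9 and 75.6 TPM, and in *ein2-45* at 88.1 and 73.2 TPM, above both L*er* libraries, while *EBF2* was below them. The *EBF1* difference of *ein6-1 een-1* from L*er* was 0.34 (adjusted p = 0.34) and -0.03 after rescaling. That of *ein2-45* was 0.41 (adjusted p = 0.35), and its rescaled libraries (85.5 and 78.1) stayed above those of L*er* (71.9 and 69.1). With the compared groups alone both differences passed (adjusted p = 0.021 and 0.045), as they did without either *ein6-1* ET library. The *EBF1* response to ET in L*er* (0.36) also passed without either of these libraries. In air the mean levels of *EBF1* and *EBF2* were 60.1 and 65.7 TPM in L*er*, 76.2 and 28.7 TPM in *ein6-1 een-1*, and 80.6 and 19.4 TPM in *ein2-45*.

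**Figure D2:**
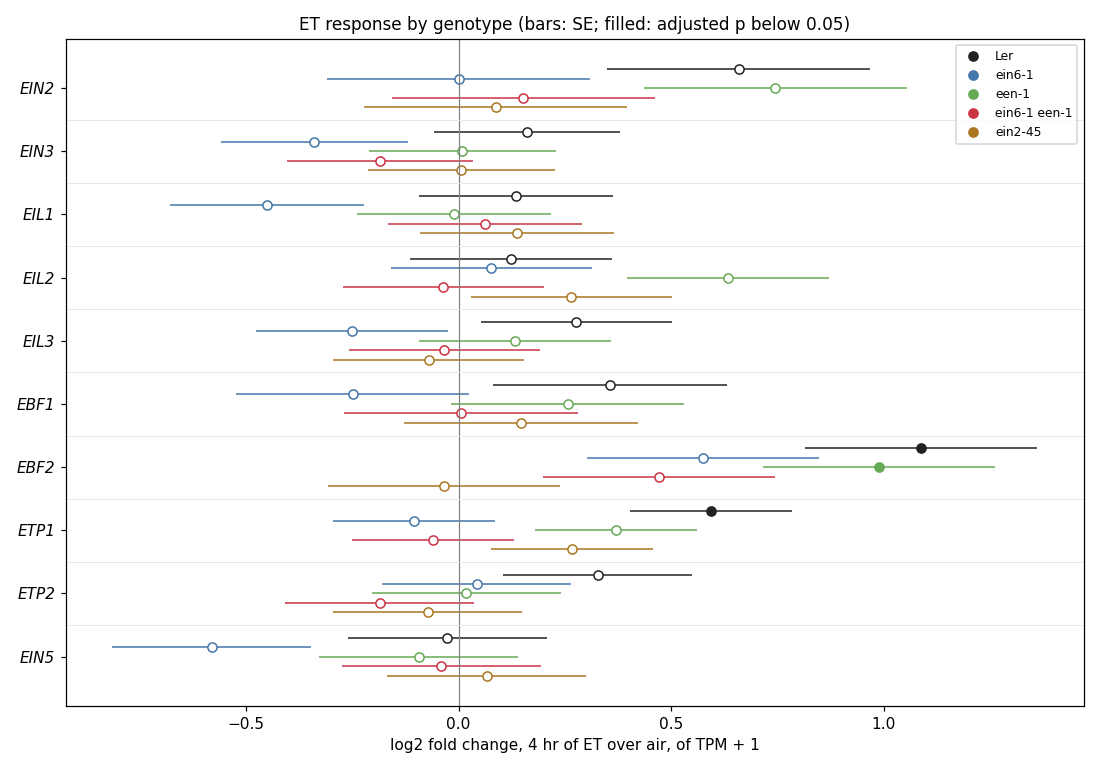
Log2 fold change of TPM + 1 between 4 hr of ET and air (horizontal axis) for the 10 loci in 5 genotypes (colors), with standard errors as bars and filled points for an adjusted p below 0.05. The filled points are *EBF2* in L*er* (1.09) and *een-1* (0.99) and *ETP1* in L*er* (0.59).

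*ETP1* and *ETP2*, the F-box genes for EIN2, were on chromosome 3 (6546200 to 6548092 and 6521569 to 6523061, both on the plus strand). *ETP1* was at 14.8 and 18.1 TPM in L*er* in air and 23.6 and 26.9 TPM after ET. The ET libraries lay above the air libraries, and the log2 fold change of 0.59 passed (standard error 0.19, adjusted p = 0.035). The call was lost without any of the 4 L*er* libraries (0.46 to 0.73, adjusted p = 0.059 to 0.27). In *een-1* the response was 21.8 and 24.7 TPM to 31.9 and 28.7 TPM (log2 fold change 0.37), and in *ein2-45* 17.2 and 16.8 TPM to 21.6 and 19.7 TPM (0.27), neither past the threshold. After rescaling the *een-1* value passed (0.33, adjusted p = 0.048, range 0.048 to 0.32 over the alternatives).

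In air *ETP1* was at 26.1 and 27.9 TPM in *ein6-1 een-1* and *ETP2* at 8.58 and 8.06 TPM, against 5.48 and 3.65 TPM for *ETP2* in L*er*. Both loci lay above all L*er* air libraries, by 0.69 (adjusted p = 0.0097) and 0.76 (adjusted p = 0.013) on the log2 scale. The median of all genes moved by 0.33 in this comparison, and after rescaling *ETP2* no longer passed (0.44, adjusted p = 0.085, with a range of 0.0052 to 0.085 over the alternatives). *ETP1* lost its call without L*er* air replicate 1 (0.56, adjusted p = 0.12) or *ein6-1 een-1* air replicate 2 (0.64, adjusted p = 0.066). *ETP2* lost it without L*er* air replicate 2 (0.52, adjusted p = 0.15) or *ein6-1 een-1* air replicate 1 (0.72, adjusted p = 0.085) or 2 (0.80, adjusted p = 0.051). *ETP2* was also higher in *ein6-1 een-1* than in *ein6-1* in air (0.74, adjusted p = 0.019), and *ETP1* after ET (0.49, adjusted p = 0.048). The latter did not pass after rescaling (0.11, adjusted p = 0.42, with a range of 0.045 to 0.44 over the alternatives), and it was lost with most single libraries left out, up to an adjusted p of 0.39 without *ein6-1* ET replicate 2 (0.20). *ETP2* lost its call without any of the 4 libraries compared (0.65 to 0.84, adjusted p = 0.057 to 0.11).

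*EIN5* (chromosome 1, 20350109 to 20356916, plus strand), which degrades uncapped RNA, was at 26.6 and 30.6 TPM in L*er* in air, 26.0 and 30.2 TPM after ET, and between 15.5 and 38.2 TPM in all 20 libraries, with the lowest value in *ein6-1* ET replicate 2. It passed no test of the first table. Its ET response in L*er* was -0.03 (standard error 0.23), and in *ein6-1* -0.58 (adjusted p = 0.13), which was -1.11 without *ein6-1* ET replicate 1 (adjusted p = 4.3e-05). Of 7 other RNA decay and P-body genes, 1 rose after ET in L*er*, *XRN2* by 0.83 (adjusted p = 0.03), with a median of 0.35 against 0.25 over all genes. In that comparison 14.8% of all genes were higher.

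**Figure D3:**
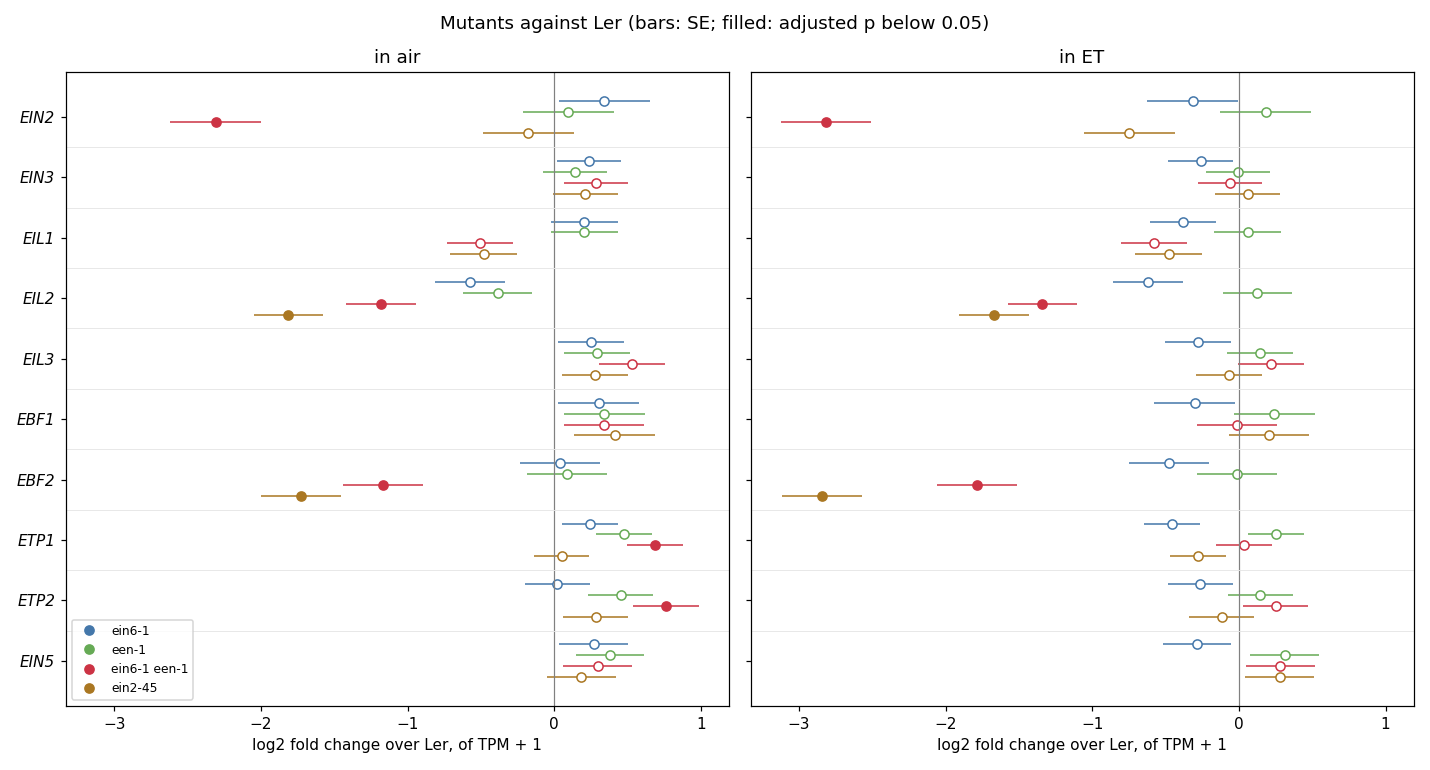
Log2 fold change of TPM + 1 of 4 mutants (colors) over L*er* (horizontal axis) for the 10 loci, in air and after ET, with standard errors as bars and filled points for an adjusted p below 0.05. *EIN2* is at -2.31 and -2.82 in *ein6-1 een-1*, and *EBF2* and *EIL2* are left of 0 in both *ein6-1 een-1* and *ein2-45*.

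Of 9 ET receptor genes and upstream regulators, 5 rose after ET in L*er* (median 1.18 against 0.25 over all genes), 5 in *een-1* (0.97 against 0.05), 3 in *ein6-1* (0.57 against -0.20), and none in *ein6-1 een-1* (0.23 against -0.07) or *ein2-45* (0.05 against 0.06). The shares of all genes that were higher after ET were 14.8%, 2.32%, 1.94%, 0.277% and 0% in these 5 genotypes. *RTE1*, a regulator of the receptor ETR1, went from 10.2 and 10.4 to 81.0 and 72.0 TPM in L*er*, and from 4.48 and 5.34 to 9.39 and 11.0 TPM in *ein6-1 een-1*. Of 9 tested genes downstream of EIN3, 8 rose in L*er* (median 1.46), 8 in *ein6-1* (0.91), 7 in *een-1* (1.43) and none in *ein6-1 een-1* (0.58) or *ein2-45* (-0.08). These lists were chosen with results of these libraries known, and their counts are no independent evidence of direction. After ET 5 of the 9 receptor and upstream genes and 8 of the 9 downstream genes were lower in *ein6-1 een-1* than in L*er*, and the same numbers in *ein2-45*. The shares of all genes that were lower in these 2 comparisons were 10.3% and 9.24%. Of 4 genes for the other SCF subunits that work with F-box proteins none passed in any ET response or in any mutant against L*er*, and of 3 genes for nuclear partners of the EIN2 C-terminus *SRT1* rose against L*er* in air in *een-1* (0.94, adjusted p = 0.033) and in *ein6-1 een-1* (0.95, adjusted p = 0.023), in the latter at 4.95 and 4.24 TPM against 0.97 and 3.22 TPM.

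The pattern of *EIN2* over the 10 groups was most like that of *scpl25* (Pearson r = 0.995 on rescaled values), *AT1G68650* (0.9754) and *AT1G64710* (0.9711), among 6369 genes with enough level and spread. For *EBF2* the nearest were *CIB1* (0.9929), *BOR1* (0.9926) and the receptor gene *ETR2* (0.9925). On the deposited scale the first for *EIN2* was *AT1G68650* (0.9757) and for *EBF2* *ETR2* (0.9957). Neither *scpl25* for *EIN2* nor *BOR1* for *EBF2* was among the first 5 on that scale. Among the 10 loci *EBF2* was most like *EIL2* (0.9355), and *EIN2* most like *EIL1* (0.8086). These values describe 10 groups that share genotypes and libraries.

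In the Col-0 background *EIN2* fell in *arp5-1*. Its level in air was 62.5 and 69.4 TPM in Col-0, 58.6 and 60.2 TPM in *een-2*, 49.6 and 45.5 TPM in *ino80-8*, and 31.8 and 40.5 TPM in *arp5-1*. The 4 genotypes did not overlap. The log2 difference from Col-0 was -0.86 in *arp5-1* (standard error 0.14, adjusted p = 0.00068), -0.46 in *ino80-8* (adjusted p = 0.11) and -0.15 in *een-2* (adjusted p = 0.53). In *arp5-1* 50.4% of all genes passed the test and 5 of the 10 loci did, a share near that of all genes. All 5 of these were lower, so that 5 of the 10 loci were lower against 27.9% of all genes. None passed in *ino80-8* (2.98% of all genes) or *een-2* (9.67%) by limma, with 1 and 2 loci at an unadjusted p below 0.05. After rescaling *EIN3* passed in *een-2* (-0.38, adjusted p = 0.048, with a range of 0.048 to 0.15 over the alternatives).

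The other loci that fell in *arp5-1* were both EIN3-degrading F-box genes, *EIN3* itself and *EIN5*. *EBF2* was at 94.8 and 108 TPM in Col-0 and 46.9 and 46.8 TPM in *arp5-1* (log2 difference -1.10, adjusted p = 5.3e-05). *EBF1* was at 104 and 93.9 TPM in Col-0 and 47.9 and 51.9 TPM in *arp5-1* (-0.97, adjusted p = 8.3e-05). *EIN3* was at 124 and 112 TPM in Col-0, 95.4 and 94.4 TPM in *een-2*, 108 and 109 TPM in *ino80-8* and 71.1 and 79.2 TPM in *arp5-1* (-0.64, adjusted p = 0.00095). In each of these 3 loci the *arp5-1* libraries lay below all 6 others. *EIN5* was at 38.7 and 39.1 TPM in Col-0 and 26.2 and 32.3 TPM in *arp5-1* (-0.41, adjusted p = 0.028), a call lost without *arp5-1* air replicate 1 (-0.26, adjusted p = 0.15), Col-0 air replicate 1 (-0.41, adjusted p = 0.083) or Col-0 air replicate 2 (-0.40, adjusted p = 0.096), or with the compared groups alone (-0.41, adjusted p = 0.06).

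*EIL1*, *EIL3*, *ETP1* and *ETP2* differed from Col-0 by -0.21 to 0.06 in *arp5-1* and did not pass, and *EIL2* was at 3.39 and 2.99 TPM against 1.27 and 1.52 TPM (0.81, adjusted p = 0.093). *EIL2* passed as higher with the compared groups alone (0.81, adjusted p = 0.019), with a pseudocount of 5 (0.36, adjusted p = 0.042) and without *ino80-8* air replicate 1 or 2 (0.81, adjusted p = 0.021 and 0.019). AT5G10120 rose in *arp5-1* by 2.72 (adjusted p = 0.00014), from 1.99 and 1.38 to 17.8 and 15.5 TPM, and AT5G65100 by 1.24 (adjusted p = 0.0057). Of the 9 receptor and upstream genes 8 fell and *EIN4* rose (0.89, adjusted p = 0.00055), with a median of -0.84 against -0.07 over all genes. Of 9 tested genes downstream of EIN3, 7 fell and none rose. Among all genes 27.9% were lower and 22.5% higher in *arp5-1*. The seed markers rose in *arp5-1*, 4 of 4, and the light-grown markers fell, 3 of 3, and *PORA* fell by 0.74. All 4 seed markers also rose in *een-2* and *ino80-8*, where none of the 10 loci passed, with sums of 597 to 878 and 909 TPM against 43.2 to 43.7 TPM in Col-0, and the light-grown markers fell in *een-2*, 3 of 3, and in *ino80-8*, 1 of 3. The part of these shifts in the *arp5-1* results was not tested.

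**Figure D4:**
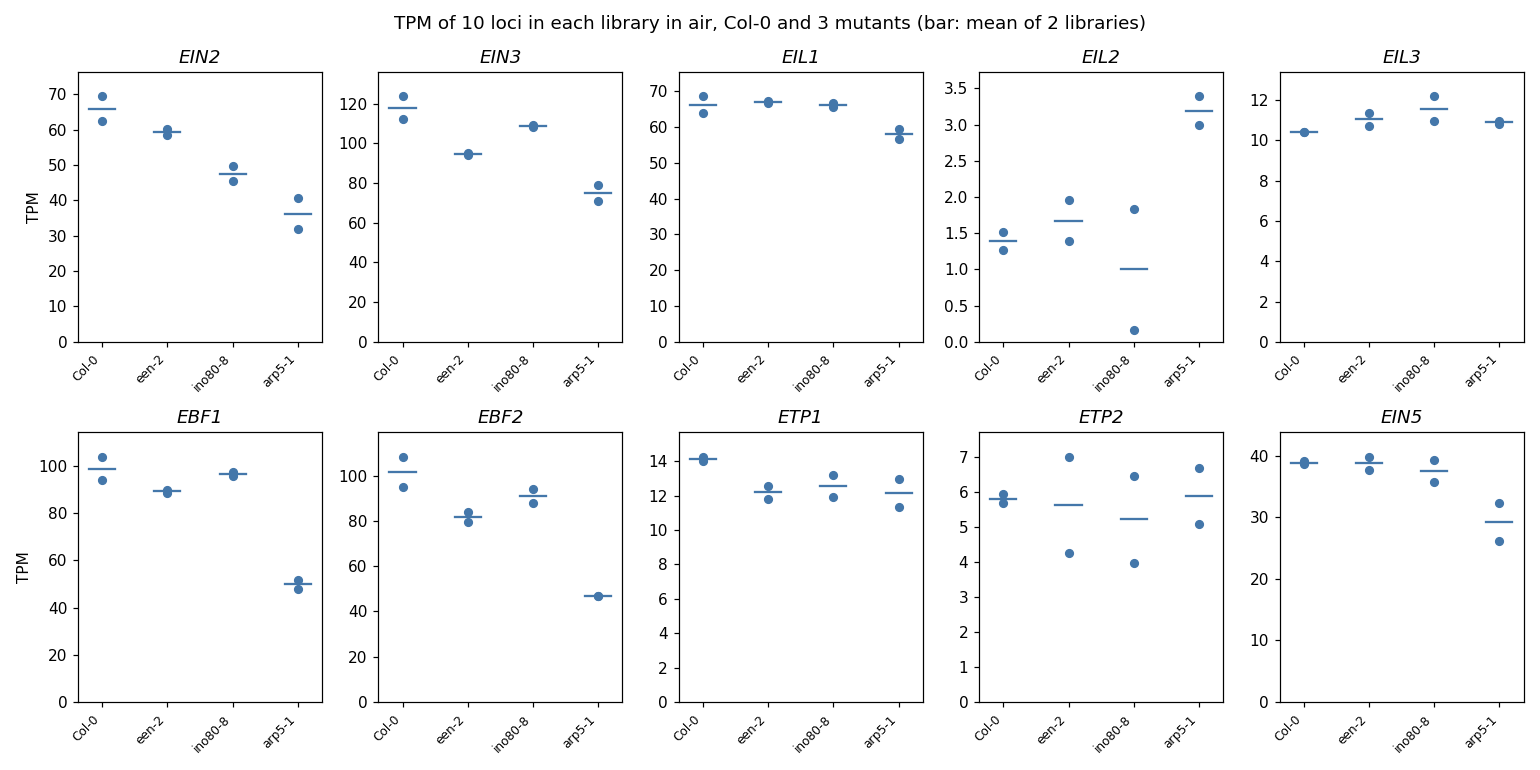
TPM (vertical axis, from 0) of each of the 10 loci in each library of the second table, all in air, for Col-0, *een-2*, *ino80-8* and *arp5-1* on the horizontal axis; points are libraries and bars the mean of 2. *EIN2*, *EIN3*, *EBF1* and *EBF2* are lowest in the 2 *arp5-1* libraries.

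Of 270 tests of the 10 loci in the 27 comparisons, 41 passed and 70 had an unadjusted p below 0.05. *EBF2* accounts for 14 of the 41 (3 higher, 11 lower), *EIN2* for 10 (all lower), *EIL2* for 7 (all lower), *ETP1* for 3 and *ETP2* for 2 (all higher), *EIL1* for 2, and *EIN3*, *EBF1* and *EIN5* for 1 each, all in *arp5-1*. The tests share libraries, so these counts are no count of independent events.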

How the data were processed

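Per the study's methods, the authors mapped single reads to TAIR10 with STAR 2.6.0c and estimated gene levels with RSEM 1.3.0, which divides reads that fit several genes by estimate, so values of paralogs are partly estimates. The deposited values are TPM, so depth is unknown here and counting error cannot be given. Each table was fitted with limma 3.58.1 (R 4.3.3, with a variance trend) on log2(TPM + 1), with 1 mean per group. Tested genes reached 1 TPM in 2 libraries or more (20592 and 20152). P-values were adjusted by Benjamini-Hochberg over all of them with a threshold of 0.05. They rest on 1 spread per gene, taken between the 2 libraries of each group and shared by all groups of a table. Libraries outside a comparison, such as the 2 of *ein6-1* after ET, therefore also bear on its p-values. The script was tested on simulated data first. Rescaling by median-of-ratios factors, other minimums, pseudocounts, gene sets and left-out libraries were alternatives. Ranges given as over the alternatives exclude every fit with 1 library left out, with or without rescaling. In the Col-0 table, 4 columns identical to columns of the other table were counted once. Sequences and positions came from RefSeq's TAIR10.1, in which 32835 identifiers matched. The named genes are the 10 loci and members of 11 lists. Both were chosen with earlier results of these data known.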

Additional observations from a re-analysis of the deposited data

Results flagged for a closer look

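The effect of *ein6-1 een-1* departed from the sum of the single mutants' effects, by a test of that difference in limma, for *EIN2* and *EBF2*. For *EIN2* the departure was -2.75 in air and -2.68 after ET on the log2 scale. For *EBF2* it was -1.29 in air (adjusted p = 0.037) and -1.30 after ET (adjusted p = 0.035). All 4 seed markers were higher by this test in both conditions (median 7.09 and 6.02), and their part in the departures was not tested. The *EBF2* calls were lost with no minimum on TPM (adjusted p = 0.092 and 0.089). In air they were also lost without L*er* air replicate 1 or 2, *een-1* air replicate 1 or 2, *ein6-1 een-1* air replicate 1 or 2, or *ein6-1* air replicate 1 (-1.33 to -1.14, adjusted p = 0.085 to 0.14). After ET they were lost without L*er* ET replicate 1, *een-1* ET replicate 1 or 2, or *ein6-1 een-1* ET replicate 1 or 2 (-1.37 to -1.10, adjusted p = 0.071 to 0.13).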

How the results depend on the processing

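Of the results of single loci under the alternatives, 6842 kept direction and side of the threshold, 294 changed sign with neither value past it (64 of them with rescaling), 167 passed newly, 97 no longer passed and 10 turned in direction with a value past it. The counts of loci called, out of 10, that moved by over 1.5 times are these. With rescaling they were 1 for ET in *ein6-1* (0 on the deposited scale), 3 for ET in *een-1* (1), 1 each for *ein6-1* and *een-1* against L*er* in air (0), 4 for *ein2-45* against L*er* after ET (2), 1 for the *ein2-45* response against that of L*er* (0), 4 for non-additivity after ET (2) and 1 for *een-2* (0). Without rRNA and organelle genes they were 1, 2, 4 and 1 for ET in *ein6-1*, ET in *een-1*, *ein2-45* after ET and the *ein2-45* response. With no minimum ET in *een-1* gave 0 and non-additivity 1 in air and 1 after ET, and with a minimum of 5 TPM *ein2-45* gave 1 in air and 1 after ET, since *EIL2* was then not tested. A pseudocount of 5 gave 2 for ET in *een-1*, and 0.1 gave 2 for *ein6-1 een-1* against *een-1* in air (4). With the compared groups alone the counts were 2 for ET in *een-1*, 3, 8 and 4 for *een-1*, *ein6-1 een-1* (5) and *ein2-45* (2) against L*er* in air, 4 for *ein2-45* after ET, 1 each for the *ein6-1 een-1* and *ein2-45* responses against that of L*er*, 2 for *ein6-1 een-1* against *ein6-1* after ET (4), and 1 for non-additivity after ET. Rescaling without *ein6-1* ET replicate 2, an alternative chosen after seeing the data, gave 4, 3 and 4 for ET in L*er* (2), *ein6-1* and *een-1*. It gave 1, 2 and 4 for *ein6-1*, *een-1* and *ein2-45* in air, 2, 5 and 6 for *ein6-1* (0), *ein6-1 een-1* (3) and *ein2-45* after ET, 1 for the *ein2-45* response, and 5 for non-additivity after ET. Apart from the library left out and *EIL2*, the cause of these changes was not tested.

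Under that same alternative the direction turned for *EBF1* in ET against air in *ein6-1* (0.40), for *EIN2* in *een-1* against L*er* in air (-0.28), for *EIN2* (0.51) and *EBF1* (0.43) in *ein6-1* against L*er* after ET, for *EIN3* (-0.32) and *EBF1* (-0.47) in *ein6-1 een-1* against *ein6-1* after ET, and for *EBF1* in non-additivity after ET (-0.57). With 1 library left out, *EIN2* in ET against air in *ein6-1* ranged from -0.81 (without ET replicate 1) to 0.81. *EBF1* ranged from -0.42 (without *ein6-1* ET replicate 2) to 1.01 in *ein6-1 een-1* against *ein6-1* after ET, and from -0.67 (without the same library) to 0.76 in non-additivity after ET. Leaving out each library in turn gave 0 to 4 called loci for ET in L*er*, 0 to 7 in *ein6-1* and 0 to 3 in *een-1*. Against L*er* in air it gave 0 to 3 for *een-1*, 3 to 8 for *ein6-1 een-1* and 2 to 4 for *ein2-45*, and after ET 0 to 9 for *ein6-1* and 2 to 4 for *ein2-45*. For the responses against that of L*er* it gave 0 to 8 in *ein6-1*, 0 to 2 in *ein6-1 een-1* and 0 to 1 in *ein2-45*. For *ein6-1 een-1* it gave 2 to 6 against *ein6-1* in air, 2 to 4 against *een-1* in air, 2 to 8 against *ein6-1* after ET, 1 to 2 against *ein2-45* after ET, and 1 to 3 in air and 1 to 6 after ET for non-additivity. A group left with 1 library was assumed to vary like the others.

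Same-numbered libraries did not deviate together in every pair of groups (r from -0.407 to 0.562 over 45 pairs in the first table and -0.063 to 0.303 over 6 in the second). The median r was 0.121 and 0.106, and 26 and 3 of these pairs were above 0.1. In the main fits replicate numbers name libraries and do not pair them. With a replicate block *ETP1* in *ein6-1 een-1* against *ein6-1* after ET no longer passed (adjusted p = 0.054), and no other locus changed its call.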
